A study of Cyanidioschyzon merolae strain 10D with 4 samples.

Results

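The genes described here are nuclear genes of the unicellular red alga Cyanidioschyzon merolae whose transcripts were scarce in darkness and more abundant under blue light. They were chosen by their measured levels: 61 genes, of 5100 rows in the authors' deposited table, had under 10 FPKM in darkness and at least 40 FPKM under blue light. FPKM is the number of fragments scaled to gene length and to sequencing depth. A gene further had to lie on a numbered chromosome, at a locus listed for no other gene, and to span at least 300 bp, which 4457 genes did. Of 62 such genes, 1 was left out by name. The cells were wild type, strain 10D, and the table compared 2 libraries from cells kept in darkness with 2 from cells given blue light for 30 minutes (15 µmol photons on each square metre every second). Sample titles gave the groups, since the labels repeat the same treatment note on all 4 samples. The labels do not say whether libraries came from separate cultures, so the spread between them may be technical.

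C. merolae lives in hot acidic springs and has a small nuclear genome with few introns, a chloroplast and a mitochondrion. Blue light reaches gene expression in algae both through flavin-binding receptors such as cryptochromes and through photosynthesis itself, and a shift from darkness to light switches on nuclear genes in many photosynthetic organisms. In the names used here the letter after CM stands for the chromosome and the final C for a protein-coding gene. All 61 genes matched a protein-coding locus tag in the RefSeq gene table of assembly ASM9120v1, and none had a symbol of its own there. The copy of that table used here held no product names for any gene, so no roles are given.

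The table holds 1 FPKM value per condition. For genes spanning at least 650 bp, a value could be split into whole fragments of the 2 libraries behind it. Which of them is replicate 1 is not known, so each is named by depth, as deeper or shallower within its condition. Over the 3220 genes with a single solution in both conditions, 373448 and 283158 fragments were recovered for darkness and 250399 and 193724 for blue light. The darkness libraries were thus the deeper ones. Of the 61 genes, 56 were resolved in darkness and 54 in both conditions. For the 5 genes shorter than 650 bp, only the total in darkness was read, and 2 long genes had several solutions under blue light.

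The induced genes had a median of 5.89 FPKM in darkness, with quartiles of 3.46 and 7.67, and a median of 76.0 FPKM under blue light, with quartiles of 53.3 and 131. These values chose the genes and are given as a description. Because RNA came from whole cell samples, transcription in fewer cells and less RNA per cell cannot be told apart. The median over all 4457 eligible genes was 97.7 FPKM in darkness and 94.8 under blue light. No induced gene lay above the first and 21 lay above the second, all of those with at least 100 FPKM. Among the 59 genes above 0 in darkness the log2 fold change ran from 2.17 to 7.64 with a median of 3.91, or 15.1-fold. The median over all 4503 tested genes was -0.017. At least 8-fold more transcript under blue light was seen for 45 of the 59, at least 16-fold for 28 and at least 64-fold for 7. The share of the summed FPKM taken by the 61 genes was 0.0327% in darkness, and 0.792% under blue light. The 3 most abundant made up 29.1% of their summed FPKM under blue light and 4.19% in darkness.

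**Figure D1:**
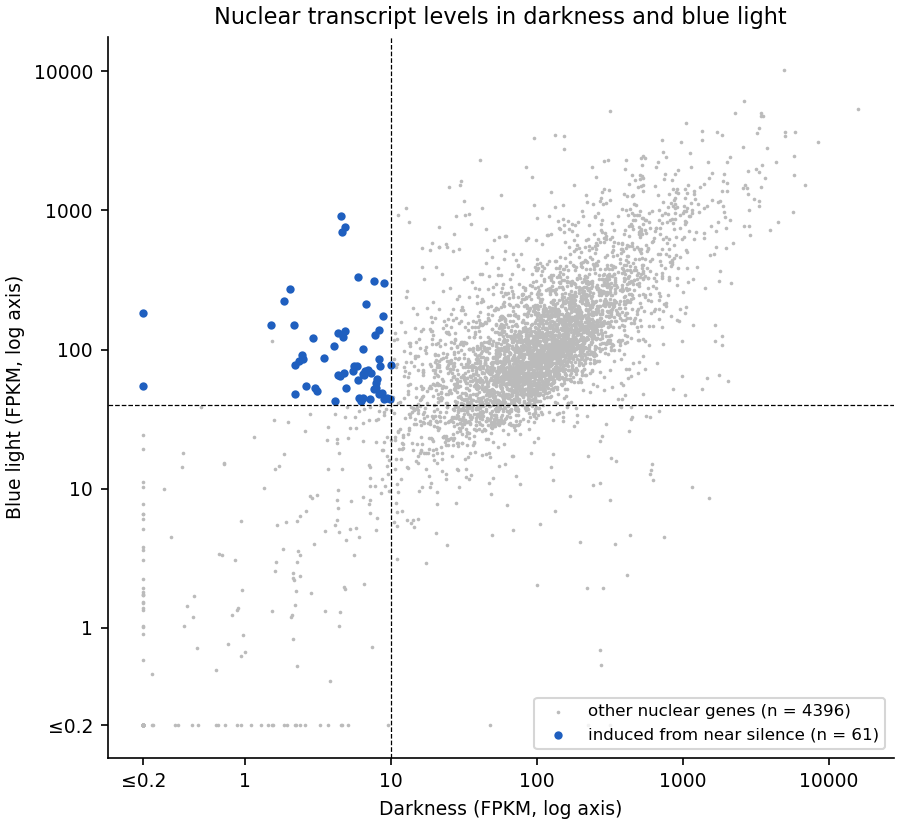
Transcript levels of 4457 nuclear genes in darkness (x axis, FPKM, log scale) and under blue light (y axis, FPKM, log scale), with the 61 induced genes in blue and the limits of 10 and 40 FPKM as dashed lines. The blue points fill the upper left corner, and 3 of them stand above 700 FPKM; the grey point among them is the gene left out by name.

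Most genes that were scarce in darkness stayed below the limit. Of the 316 eligible genes under 10 FPKM in darkness, 19.3% were among the induced genes. Of the 254 that had under 40 FPKM in blue light, 64 had from 10 to 40 FPKM and 190 had less. Among these 190, 64 genes were at 0 in both conditions. In the opposite direction, 22 of 231 genes under 10 FPKM in blue light, or 9.52%, had at least 40 FPKM in darkness. The limits cut through a continuous range. Just inside the darkness limit lay CMP052C with 9.91 FPKM, CMR276C with 9.84 and CME199C with 9.44. Just outside it lay CMM237C and CMR061C, each with 10.2 FPKM, and CMS307C with 10.3, all 3 between 42.7 and 45.4 FPKM under blue light. Just inside the blue light limit lay CMR395C and CMM110C, both with 42.9 FPKM, and CMI177C with 43.9. Just outside it lay CMO323C with 39.9 FPKM, CMT010C with 38.9 and CMB043C with 38.9. CMT010C had 0.501 FPKM in darkness, less than any induced gene above 0.

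Near silence meant few fragments rather than none. The 56 resolved genes had a median of 9 fragments in darkness over both libraries, from 0 to 54. No fragment was seen for 2 genes, 1 to 3 for 6, 4 to 9 for 21, 10 to 19 for 19 and at least 20 for 8. Under blue light, in shallower libraries, the 54 resolved genes had a median of 104 fragments, from 33 to 860. In all 54 both blue light libraries were above both darkness libraries, a separation that the choice of genes largely fixed. The lower blue light library was above the higher darkness library by a median of 10.7 times. The narrowest gap was that of CMR276C, at 2.3 times.

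**Figure D2:**
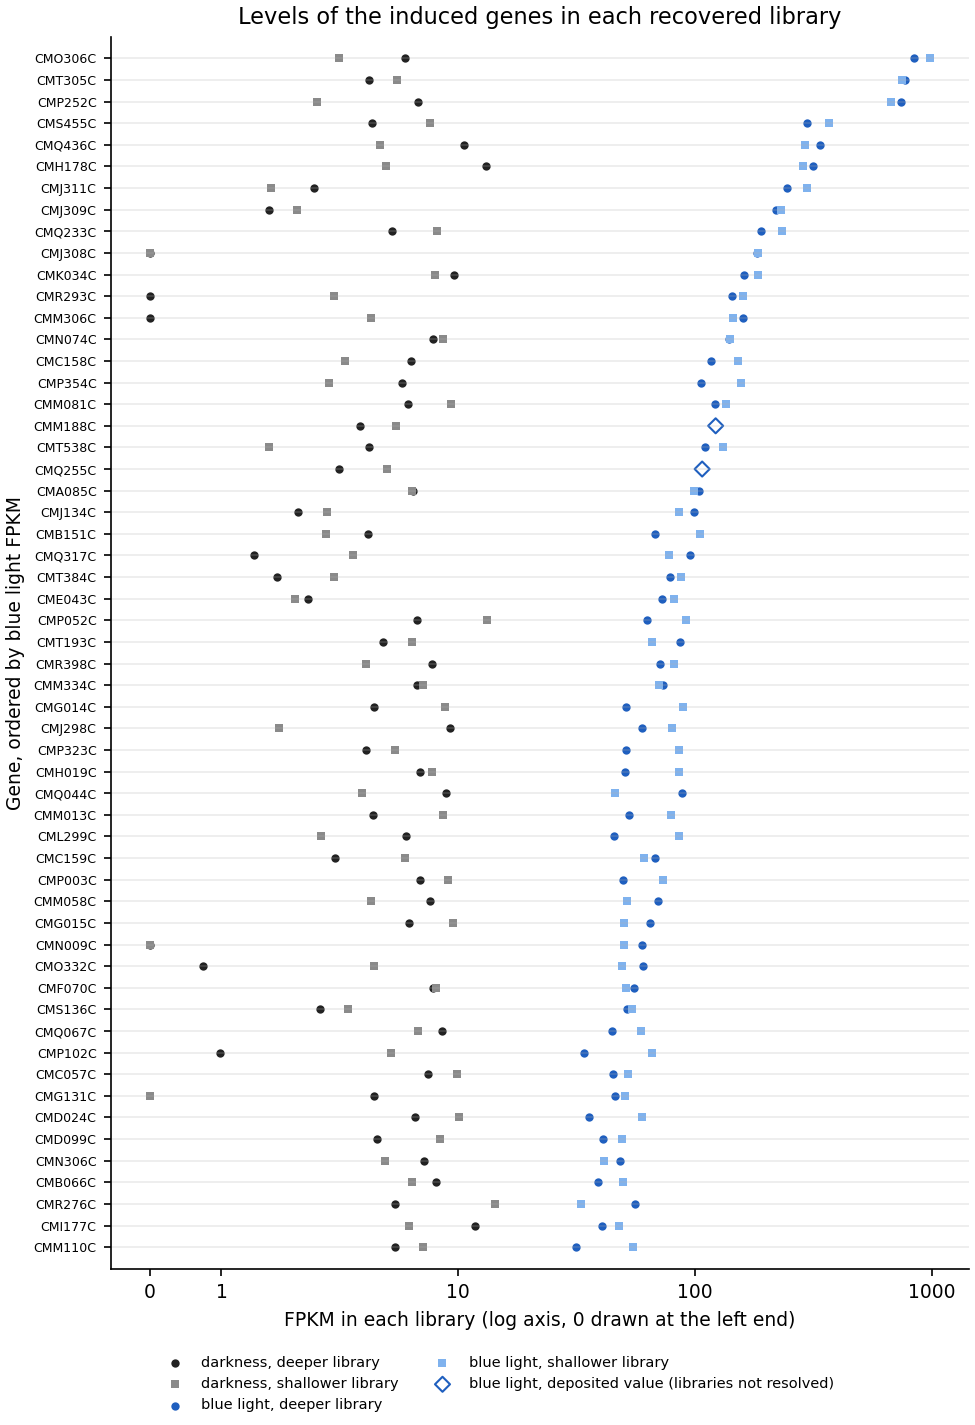
FPKM of 56 induced genes in each recovered library (x axis, log scale, values of 0 at the left end), ordered by their blue light level (y axis). Grey and black points are the darkness libraries, blue points the blue light libraries, and open diamonds the deposited blue light value of the 2 genes whose libraries were not resolved; the blue and black points do not meet in any row.

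The 3 most abundant induced genes stood well above the rest. CMO306C, on chromosome 15 from 763737 to 764899, had 5.95 FPKM in the deeper and 3.14 in the shallower darkness library, and 839 and 978 FPKM in the blue light libraries. It ranked 4241 of the 4457 genes in darkness and 191 under blue light. CMT305C, on chromosome 20 from 772119 to 773418, had 4.18 and 5.52 FPKM in darkness and 770 and 747 under blue light. For both genes the blue light libraries lay close together, while the distance between conditions is part of how the genes were chosen. CMP252C, on chromosome 16 from 636851 to 638246, had 6.75 and 2.54 FPKM in darkness and 742 and 668 under blue light. The ratio of blue light to darkness, taken from fragments pooled over the libraries of a condition, was 190 for CMO306C with a 95% interval of 91.7 to 474. Such intervals are exact conditional binomial ones and cover counting error only. The ratio was 160 for CMT305C (80.7 to 371) and 144 for CMP252C (75.4 to 316). The intervals of the 3 genes overlap, so their order by ratio is not resolved, while their pooled darkness counts were 7, 8 and 9 fragments.

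A further 6 genes had from 200 to 400 FPKM under blue light. CMS455C, on chromosome 19, had 4.3 and 7.57 FPKM in darkness and 296 and 367 under blue light. CMQ436C, on chromosome 17 from 1135783 to 1136954, had 10.6 and 4.67 FPKM in darkness and 336 and 290 under blue light. CMH178C, on chromosome 8, had 13.1 and 4.94 FPKM in darkness and 313 and 286 under blue light. The blue light libraries of these 3 genes overlapped in range, so that their order is not resolved. CMQ233C, on chromosome 17, followed with 5.27 and 8.1 FPKM in darkness and 190 and 232 under blue light. The other 2, CMJ311C and CMJ309C, belong to a run on chromosome 10 and are described with it.

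Between 100 and 200 FPKM under blue light lay 12 genes, and the long ones among them showed low darkness levels on many fragments. CMM188C, on chromosome 13 from 464041 to 472201, spans 8160 bp, the longest of the induced genes. Its 26 and 28 darkness fragments came to 3.85 and 5.44 FPKM, against 122 FPKM in the deposited blue light value, a log2 fold change of 4.72. CMQ255C, on chromosome 17 from 651272 to 658260, had 18 and 22 darkness fragments, or 3.12 and 5.01 FPKM, against 107 FPKM under blue light, a log2 fold change of 4.71. These are 2 of the best counted low levels in the set. CMT538C, on chromosome 20 from 1350900 to 1355005, had 14 and 4 darkness fragments, or 4.21 and 1.58 FPKM, and 110 and 131 FPKM under blue light. Its ratio of 38.8 had an interval of 24.3 to 66.1.

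The shorter genes of this range rested on fewer fragments in darkness. CMK034C had 9.63 and 7.95 FPKM in the darkness libraries and 161 and 185 under blue light. CMN074C had 7.85 and 8.64 FPKM in darkness and 139 and 140 under blue light. CMP354C had 5.76 and 2.85 FPKM in darkness and 106 and 156 under blue light. The last of these had the widest gap between its blue light libraries in this group, at -0.56 for deeper minus shallower on the log2 scale. CMM081C had 6.16 and 9.28 FPKM in darkness and 121 and 135 under blue light. CMA085C had 6.44 and 6.37 FPKM in darkness and 104 and 99.3 under blue light. CMM306C, CMR293C, CMJ308C and CMC158C complete the 12 and are described below.

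A total of 2 genes had no fragment in darkness. CMJ308C, on chromosome 10, had 182 and 184 FPKM in the blue light libraries, from 87 and 68 fragments. With 3 fragments over both darkness libraries as the limit that a count of 0 allows, it was at least 79.8-fold higher under blue light. CMN009C, on chromosome 14 from 21572 to 22358, had 59.4 and 50.2 FPKM under blue light, from 20 and 13 fragments. By the same limit it was at least 16.9-fold higher. Both limits cover counting error in darkness only and take the blue light counts as exact. They are thus less strict than the lower bounds of the intervals given for other genes. A further 3 genes had no fragment in 1 of the darkness libraries. CMR293C had 0 and 2.99 FPKM there, from 1 fragment in the shallower library, and 143 and 159 FPKM under blue light. Its ratio of 117 had an interval of 20.3 to 4680. CMM306C had 0 and 4.29 FPKM in darkness and 159 and 144 under blue light, a ratio of 82.5 with an interval of 22.3 to 690. CMG131C had 4.42 and 0 FPKM in darkness and 45.8 and 50.6 under blue light, a ratio of 19 with an interval of 6.03 to 96.5. The intervals of the 3 ratios overlap, so that their order is not resolved.

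The authors' test followed the number of darkness fragments within the set. By the q-values in the authors' deposited table, 49 of the 61 genes rose at q under 0.05 and 12 did not pass. Over all 4503 tested rows 27.1% rose, a share that cannot be set against the 49, because the same values chose the genes. All 61 had a valid test in the authors' deposited table, as had 4204 of the 4457 eligible genes. Of the 254 genes that were low in darkness and stayed under 40 FPKM, 36 had one. The blue light limit itself parts these 254 from the 61, so nothing is read from that difference. The 12 that did not pass had 1 to 4 fragments in darkness, while the 49 that passed had 0 or at least 5. Of the 12, 5 were the genes under 650 bp, with 2 to 4 darkness fragments each: CMQ282C, CMO093C, CMP180C, CME199C and CMR395C. The other 7 had log2 fold changes of 4.45 to 7.06, all above the median of the set. They were CMJ311C, CMJ309C, CMM306C, CMR293C, CMJ134C, CMB151C and CMG131C. CMJ134C had 2.11 and 2.78 FPKM in darkness and 98.4 and 85.1 under blue light. The authors' deposited table lists a q-value of 0.087 for it. CMB151C had 4.17 and 2.76 FPKM in darkness and 67.9 and 105 under blue light. The authors' deposited table lists 0.16 for this gene. The lowest q-value listed there, 0.00021, was given both to CMJ308C and CMN009C, with no darkness fragment, and to long genes such as CMM188C. Other tested nuclear genes with resolved fragments and over 4-fold more transcript under blue light followed a like order. Of those with 1 to 4 darkness fragments, 0 of 4 passed, against 5 of 7 with 5 to 9 fragments and 23 of 23 with 10 to 19. By the choice of genes, those with 1 to 4 were under 40 FPKM in blue light, apart from any left out by name. Low counts in darkness and under blue light cannot be told apart there.

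**Figure D3:**
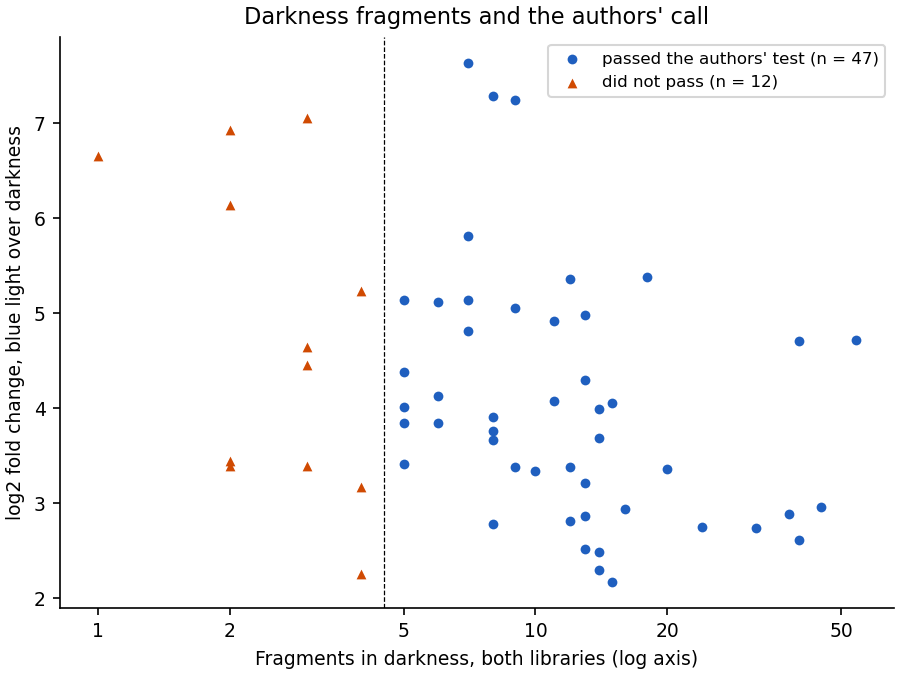
Fragments in darkness over both libraries (x axis, log scale) against the log2 fold change, with positive values higher under blue light (y axis), for the 59 induced genes above 0 in darkness. Blue circles passed the authors' test and orange triangles did not; the 12 triangles all lie left of the dashed line between 4 and 5 fragments, and they reach up to 7.06.

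Below 100 FPKM under blue light lay 40 genes, 28 of them with at least 50 FPKM. The largest log2 fold change among them was the 5.23 of CMJ134C, described above, and 3 genes came close to it. CMQ317C, on chromosome 17, had 1.37 and 3.6 FPKM in darkness and 95 and 77.4 under blue light. CMT384C, on chromosome 20, had 1.71 and 2.99 FPKM in darkness and 78.1 and 87.4 under blue light. CME043C, on chromosome 5, had 2.33 and 2.04 FPKM in darkness and 72.6 and 81.5 under blue light. All 3 had a log2 fold change of 5.12 to 5.14 and darkness totals of 5 to 7 fragments. CMO332C, on chromosome 15, had 0.837 and 4.41 FPKM in darkness and 60 and 49 under blue light. CMS136C, on chromosome 19, had 2.6 and 3.42 FPKM in darkness and 51.3 and 54.2 under blue light. CMP102C, on chromosome 16, had 0.99 and 5.22 FPKM in darkness, from 1 and 4 fragments, and 33.9 and 66 under blue light. Its libraries were wide apart in both conditions, in darkness on too few fragments to resolve the gap. Log2 fold changes of these last 3 genes ran from 4.01 to 4.38.

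In this range, capped at 100 FPKM under blue light, the genes with the most darkness fragments showed smaller changes. More darkness fragments lower the ratio itself, so nothing is read from this. CMP052C, on chromosome 16 from 135190 to 138550, had 18 and 27 darkness fragments, or 6.67 and 13.2 FPKM, and 62.5 and 91.4 FPKM under blue light. CMB066C, on chromosome 2, had 25 and 15 darkness fragments, or 8.08 and 6.37 FPKM, and 38.9 and 49.6 FPKM under blue light. CMN306C, on chromosome 14, had 25 and 13 darkness fragments, or 7.19 and 4.92 FPKM, and 48.1 and 41.3 FPKM under blue light. The intervals of their ratios were narrow, at 5.74 to 11.2, 4.17 to 8.63 and 5.1 to 10.6. CMF070C, CMQ067C and CMM058C, with 32, 24 and 20 darkness fragments, had ratios of 6.74, 6.52 and 10.1.

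Another 17 genes of this range had darkness levels of 4.33 to 8.67 FPKM and log2 fold changes of 2.48 to 3.91, each rising by the authors' deposited table. They were CMT193C, CMR398C, CMM334C, CMJ298C, CMP323C, CMH019C, CMQ044C, CMM013C, CML299C, CMP003C, CMC057C, CMD024C, CMD099C and CMM110C, together with the neighbours CMG014C, CMG015C and CMC159C. The lowest log2 fold changes of the whole set were those of CMR276C, CME199C and CMI177C, at 2.17, 2.25 and 2.29. CMR276C, on chromosome 18, had 5.41 and 14.3 FPKM in darkness and 55.6 and 32.8 under blue light. CMI177C, on chromosome 9, had 11.8 and 6.2 FPKM in darkness and 40.3 and 47.5 under blue light. CMM110C, on chromosome 13, had 5.39 and 7.12 FPKM in darkness and 31.5 and 54.4 under blue light. Of the short genes, known only by the deposited values, CME199C had 9.44 and 45.0 FPKM, CMQ282C had 8.22 and 86.1 and CMR395C had 4.1 and 42.9. The interval of the ratio for CMI177C, 2.48 to 9.19, had the lowest lower bound of the 52 genes with an interval. Among those 52, the lower bound was at least 8 for 23.

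The 2 blue light libraries differed little for the induced genes, a comparison that the choice of genes did not use. The median absolute difference between them was 0.26 on the log2 scale over 54 genes, against 0.21 over 2428 other eligible genes in the same range of blue light FPKM. The induced genes had a median of 104 blue light fragments and the others 122, so the former were counted a little less well. Over 695 other genes that rose in the authors' deposited table, with a median of 163 blue light fragments, the median absolute difference was 0.19. No induced gene differed by over 2-fold between the libraries, against 0.783% of the others and 0.288% of the 695. These shares are too low for 54 genes to show a difference. The signed difference, deeper minus shallower, had a median of -0.16 for the induced genes and -0.02 for the others. In 35.2% of the induced genes the deeper library was the higher one, against 47.6% of the others and 44.5% of the 695. Genes are not independent replicates, and with 1 pair of libraries this lean was not tested. At the ends of the range, CMP102C differed by -0.96, CML299C by -0.91 and CMQ044C by 0.93.

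**Figure D4:**
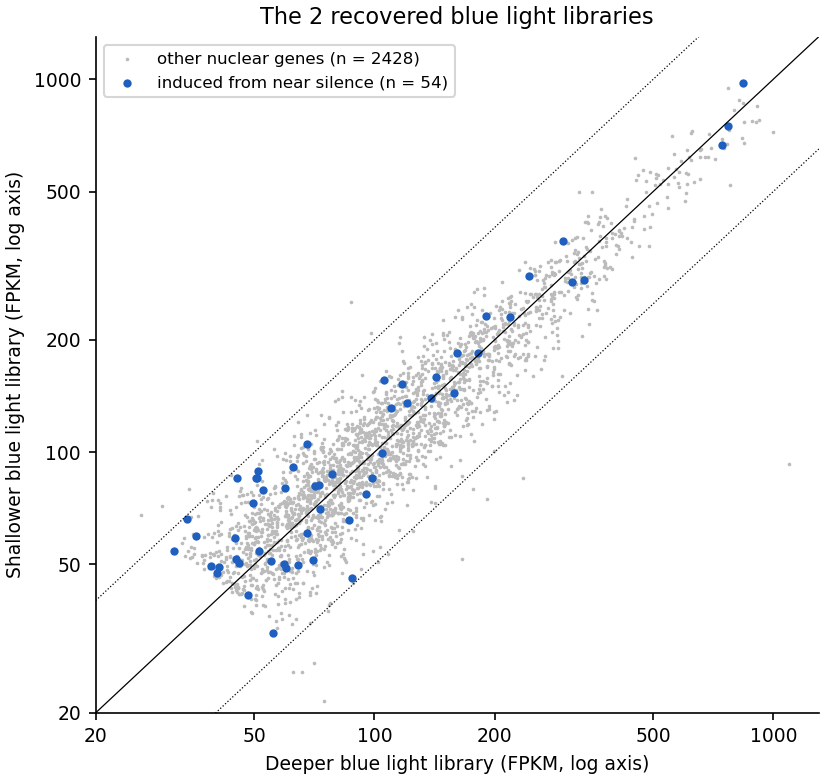
FPKM in the deeper (x axis) and the shallower (y axis) blue light library, both log scales, for 54 induced genes (blue) and 2428 other nuclear genes in the same range (grey). The solid line marks equal values and the dotted lines a 2-fold difference; all blue points lie between the dotted lines.

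Induced genes were found on all 20 nuclear chromosomes. They made up 1.37% of the eligible genes. Chromosomes 13, 16 and 17 held 7 each, or 2.95%, 2.81% and 2.08% of their eligible genes, while chromosomes 1, 6, 9, 11 and 12 held 1 each. A total of 13, or 21.3%, lay within 50 kb of the outermost row of their chromosome, against 12.0% of the eligible genes. Among these were CME199C, the last row of chromosome 5, CMM334C on chromosome 13 and CMP003C on chromosome 16. Genes next to each other were counted singly, namely CMJ309C, CMJ308C and CMJ311C, and CMG014C and CMG015C. The positions of CMJ309C and CMJ311C are uncertain, as described below, and the difference in shares was not tested. The span of the induced genes had a median of 1261 bp, against 1293 bp over the eligible genes.

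Adjacent rows of the table were both induced in 3 places, which took in 7 genes. On chromosome 10, CMJ309C, CMJ308C and CMJ311C followed each other from 807870 to 817475. CMJ309C had 1.58 and 2.09 FPKM in darkness, from 1 fragment in each library, and 219 and 230 under blue light, a ratio of 124 with an interval of 33.8 to 1030. CMJ311C had 2.45 and 1.62 FPKM in darkness, from 3 fragments in all, and 245 and 297 under blue light, a ratio of 128 with an interval of 43.2 to 624. With CMJ308C between them at 0, these were 3 of the 6 lowest darkness values of the set. Their blue light values of 183, 224 and 271 FPKM, by contrast, lay close together. Beside the run, CMJ306C rose by the authors' deposited table, from 53.5 to only 87.0 FPKM, and CMJ313C had 7.11 and 14.8 FPKM without a valid test. The deposited positions of CMJ309C and CMJ311C lie kilobases away from those of the RefSeq table, which lists CMJ308C before CMJ309C and a noncoding gene between CMJ309C and CMJ311C. The starts of the other 59 genes lay within 1000 bp of the table's, 57 of them within 10 bp. The values of CMJ309C and CMJ311C are therefore those of the deposited loci, and the order within the run is uncertain.

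On chromosome 3, CMC158C and CMC159C lay from 383430 to 387612. CMC158C had 6.29 and 3.32 FPKM in darkness and 117 and 152 under blue light. CMC159C had 3.01 and 5.96 FPKM in darkness and 67.8 and 60.7 under blue light. The row before them, CMC157C, missed the darkness limit narrowly and rose by the authors' deposited table, with 10.5 and 118 FPKM, while CMC160C behind them had 124 and 82.4 FPKM. On chromosome 7, CMG014C and CMG015C lay from 39590 to 41963, with 353 bp between them. CMG014C had 4.4 and 8.75 FPKM in darkness and 51.2 and 88.8 under blue light. CMG015C had 6.18 and 9.52 FPKM in darkness and 64.2 and 50 under blue light. The rows on either side, CMG012C with 213 and 157 FPKM and CMG016C with 38.4 and 32.0, did not pass the test in the authors' deposited table.

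**Figure D5:**
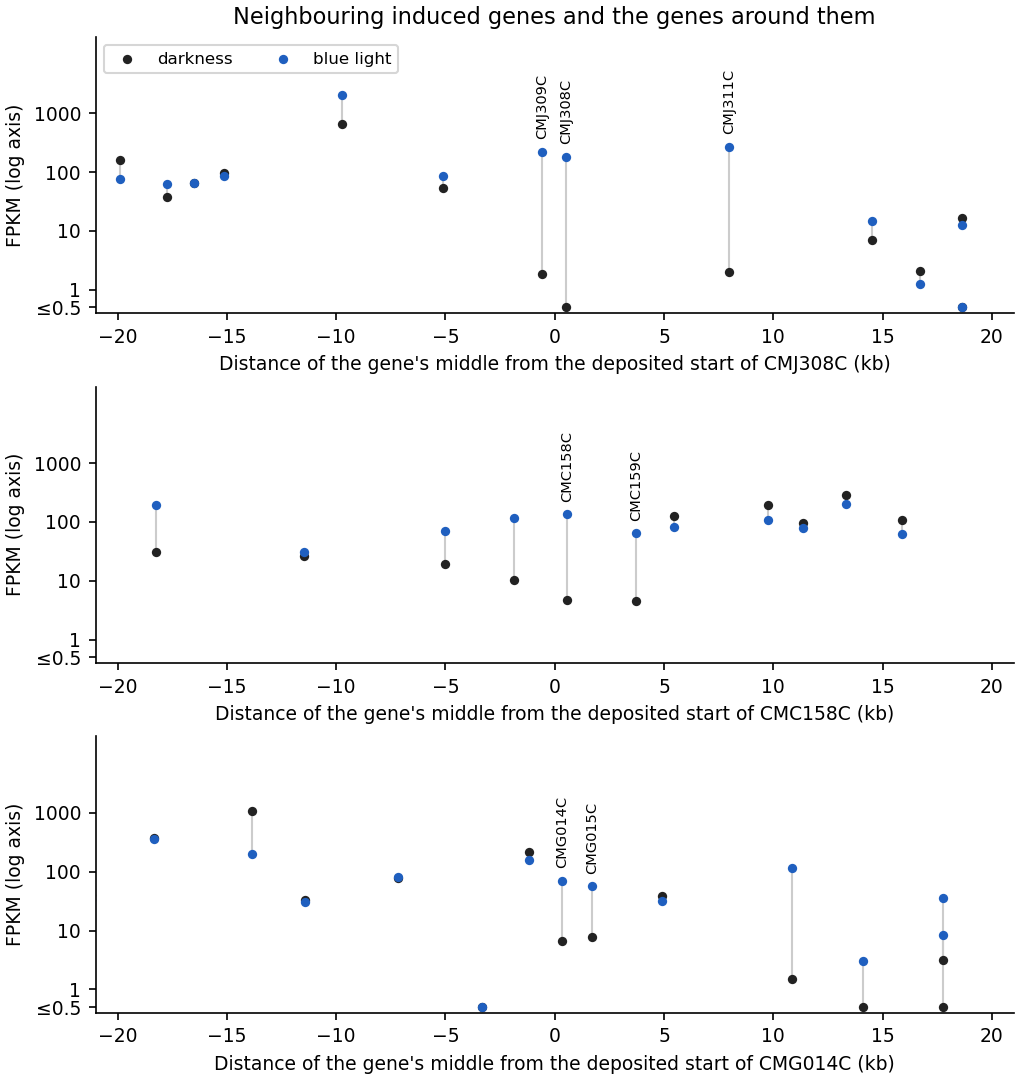
Darkness (black) and blue light (blue) FPKM (y axis, log scale) of all rows within 20 kb of 3 groups of adjacent induced genes, against the distance of each gene's middle from a reference start (x axis, kb). Values under 0.5 FPKM are drawn at 0.5. The named genes have long vertical bars, and some of the other rows differ widely between conditions as well.

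The nearest rows on either side came to 113 genes outside the set, of which 104 were tested. By the authors' deposited table, rises numbered 34 of these, or 32.7%, against 27.1% of all tested rows, and 18 fell, or 17.3%, against 26.1%. Their median log2 fold change was 0.09. At least 4-fold rises were called in the authors' deposited table for 6 of the 104, or 5.77%, and for 7.44% of all tested rows. The 6 were CMC157C, CMN305C, CMT304C, CMJ296C, CMT192C and CMQ281C. The 104 leave out the induced genes, 7 of which lie next to another, while all tested rows include them. These shares are therefore not of like sets, and their differences were not tested. Other neighbours had values as far apart or farther without passing the test. CMQ045C, at a shared locus beside CMQ044C, had 2.5 and 103 FPKM, a log2 fold change of 5.36 beside 3.38 for CMQ044C. CMT539C, beside CMT538C, had 1.96 and 30.1 FPKM, and CMB149C, beside CMB151C, had 26.7 and 147. CMO333C, beside CMO332C, had 0.369 and 14.4 FPKM without a valid test. CMN305C, 44 bp from CMN306C, had 10.5 and 86.1 FPKM. CMT304C, 1310 bp from CMT305C, had 16.5 and 140 FPKM, a log2 fold change of 3.08 beside 7.29 for CMT305C. Both rows beside CMO306C rose by the authors' deposited table, CMO305C with 80.7 and 163 FPKM and CMO308C with 44.2 and 80.7. Strands are not given in the table, so reads from a neighbour that runs over into a gene cannot be told apart from the gene's own.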

How the data were processed

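Transcripts were measured by RNA sequencing of total RNA. Per the submitters' processing notes, TopHat2 2.0.5 and Cuffdiff were used. For the Cuffdiff version, genome build, annotation and normalization, the sources used here give nothing. The authors deposited FPKM per condition, a log2 fold change with 77 cells lost to a spreadsheet error, a test statistic (a score, not used), and p-values and q-values, per the file headers. A gene was counted as called at a q-value under 0.05 with a valid test, which 597 rows lacked. Fold changes were recomputed from the FPKM values. The members and lists were chosen with earlier results of these data known.

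For each condition FPKM was modelled as the mean of 2 libraries, each with whole fragments, a depth and a length taken off the span, fitted as 162 to 173 bp. Solutions had to match the 6 deposited digits within a tolerance of 1.3 times the rounding error of the last digit. Where several did and both values were above 0, they also had to match the deposited log2 fold change, if readable. On simulated fragments for 3781 genes, 3131 had 1 solution, and 99.8% of those were right, including all 52 solved of 54 simulated members. Darkness totals of genes under 650 bp were read within 0.1%. Intervals are 95% exact conditional binomial ones, and a count of 0 allows 3 fragments over both libraries.

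The genes described in full are the 25 highest under blue light, the 10 lowest above 0 in darkness, those at 0, those next to another and the 3 nearest to each limit. CMS136C, CMP102C, CMB066C, CMN306C, CMF070C, CMQ067C, CMM058C and CML299C were singled out after their values were seen. No product names, promoter or protein sequences were at hand, so the 16 product lists, the motifs and the protein comparisons were not used here. Genome sequence was not used here. Alternatives were other limits, q-values, pseudocounts, centring and libraries left out. Python 3.11.15, numpy 2.4.6, scipy 1.17.1, pandas 2.3.3 and matplotlib 3.10.9 were used.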

Additional observations from a re-analysis of the deposited data

Results flagged for a closer look

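A further 9 nuclear rows met both levels and failed another condition of the choice, 8 because they shared their locus with another row and 1 because it is not a CM gene and spans 135 bp. Their blue light values were above those in darkness. Of the 9, CMQ045C is counted above among the neighbours. The others are compared nowhere as induced genes, but those with a valid test are among the 4503 tested rows. CMQ045C, the row beside CMQ044C, had 2.5 FPKM in darkness, against 103 under blue light. CMG189C had 9.67 and 98.8 FPKM, CMG001C had 0.0385 and 69.4 FPKM, and CMJ225C had 4.13 and 67.8 FPKM. CMM165C had 7.36 and 58.7 FPKM, CMO061C had 3.07 and 48.3 FPKM, and CML203C had 1.99 and 44.2 FPKM. CMS116C was listed at 0 in darkness with 42.5 FPKM under blue light. The short row, on chromosome 8 from 214686 to 214821, was listed at 0 in darkness with 108 FPKM under blue light. It and 2 of the shared rows, CMG001C and CMS116C, had no valid test in the authors' deposited table. The locus listed for CMG001C is on chromosome 15, although the letter in its name stands for another chromosome.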

How the results depend on the processing

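The size of the set followed its limits: it was 28 genes with darkness under 5 FPKM and 159 with under 20, and 97 genes with blue light of at least 20 FPKM and 26 with at least 80. Keeping shared loci gave 69 genes, and a span of at least 650 bp gave 56. The authors' calls fell from 49 to 36 at a q-value under 0.01. The median log2 fold change of 3.91 was 3.63 with a pseudocount of 1 and 2.4 with 10, which by construction shrinks changes of low values. Over the genes with recovered fragments alone the median was 4. Without 1 of the recovered libraries, whichever it was, it ran from 3.96 to 4.15. The alternatives for neighbours, for genes at 0 in darkness and for resolved genes alone were chosen after seeing the data; the neighbours' median of 0.09 was 0.04 at 1000 bp or more. No paired analysis was possible because a column of the table stands for a condition, with no replicate numbers. Count tests were not run, since the table holds FPKM, and motif, protein and product alternatives were not run for want of sequences and names. Depth limits the darkness values, which rest on 0 to 54 fragments.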
